A study of Rattus norvegicus with 13 samples.

Results

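The genes described are the ligands and receptors of vascular endothelial growth factor (VEGF) that act on blood vessels: the ligand genes Vegfa, Vegfb and Pgf, the receptor genes Kdr and Flt1, and the co-receptor genes Nrp1 and Nrp2. They were chosen by name, and they and the gene lists below were chosen with earlier results of these data known. All 7 were found among the 28358 rows of the day 3 tables and kept among the 14762 genes tested. The RNA came from peripheral cornea and limboscleral tissue of wild-type Lewis rats, all male and 2 months old, whose corneas had been made deficient in limbal stem cells, a model in which vessels grow into the cornea. Rats given spironolactone, an antagonist of the mineralocorticoid receptor, received 25 mg/kg/day by daily subcutaneous injection and gave 3 libraries at day 3. Rats given vehicle, which was 90% olive oil and 10% DMSO, also gave 3 libraries at day 3. Both groups carry the corneal model, and no group without it is analysed here. Whether a library is 1 animal or a pool is not in the labels, and the p-values therefore reflect library-to-library spread, which may be technical. The day 7 libraries of the study are not analysed here.

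VEGF-A is the main growth signal of blood vessel endothelium, is induced by low oxygen, and is a drug target in neovascular eye disease. Its kinase receptor VEGFR2, encoded by Kdr, carries most of the proliferative signal. VEGFR1, encoded by Flt1, binds VEGF-A tightly with weaker kinase activity and can act as a decoy, also as a soluble form that is known to help keep the cornea free of vessels. VEGF-B and placental growth factor (Pgf) bind VEGFR1 but not VEGFR2. Neuropilins bind VEGF together with the kinase receptors, and they also bind class 3 semaphorins on nerves and other cells.

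No member passed the test at day 3. For Kdr, Flt1 and Nrp1 the highest spironolactone value lay under the lowest vehicle value, Vegfa was lower on average with overlapping groups, and Vegfb, Pgf and Nrp2 differed by less than their standard errors. By edgeR's quasi-likelihood test 0 of 7 members had an adjusted p under 0.05, where 0% of all genes tested were called. At an unadjusted p under 0.05, 2 of 7 members were lower (Flt1 and Nrp1) and 0 were higher, against 10.4% of all genes lower and 12.2% higher. Groups that did not overlap in the lower direction were found for 3 of 7 members, against 16.1% of all genes, and in the higher direction for 0 of 7, against 16.0%. The log2 fold change of spironolactone over vehicle was negative for 6 of 7 members, against 51.6% of all genes, and its median was -0.18 over the members and -0.01 over all genes tested. DESeq2 called 1 member lower, Flt1, where it called 3.41% of genes lower, and limma-voom called 0.

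Libraries held 18.2 to 25.3 M estimated counts, and the members had between 78 (Pgf) and 5957 (Nrp1) counts per library. The tissue carried epithelial transcripts, with the basal keratin gene Krt5 at 3181 to 7708 TPM (a transcript level scaled by gene length and by library total), and the stromal gene Kera at 26.01 to 74.3 TPM. The corneal keratin gene Krt12 was at only 7.23 to 10.9 TPM. Retinal and skeletal muscle transcripts were also present, with sums given beside the results. The rod gene Gnat1 had 640, 841 and 37.5 TPM in spironolactone replicates 1, 2 and 3, against 1203, 1071 and 1059 TPM in vehicle replicates 1, 2 and 3, so spironolactone replicate 3 stood apart. Mitochondrial transcripts took 4.17% to 4.85% of counts with spironolactone and 5.13% to 5.48% with vehicle. In bulk tissue, fewer cells of a type and less RNA per cell cannot be told apart.

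Promoters of Vegfa and Kdr are shown because these are the central ligand and its signalling receptor. The sequences are the bases before the first annotated start in RefSeq on build GRCr8, plus strand, and capitals mark GC boxes (GGGCGG on either strand, without overlaps here), the motif of Sp1-type factors. Vegfa's lies at chr9:22452604-22452853 and Kdr's at chr14:32571813-32572030.
Vegfa: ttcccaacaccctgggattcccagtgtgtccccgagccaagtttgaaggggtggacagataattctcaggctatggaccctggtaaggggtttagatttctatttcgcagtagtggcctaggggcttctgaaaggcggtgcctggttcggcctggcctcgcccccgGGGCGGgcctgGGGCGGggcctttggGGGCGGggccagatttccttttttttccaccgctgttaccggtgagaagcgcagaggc
Kdr: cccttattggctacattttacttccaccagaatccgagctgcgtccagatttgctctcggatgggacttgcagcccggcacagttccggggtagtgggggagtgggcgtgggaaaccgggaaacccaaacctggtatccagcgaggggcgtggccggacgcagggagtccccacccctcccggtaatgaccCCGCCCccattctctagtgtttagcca
The Vegfa window holds 3 GC boxes, all on the given strand, toward the start; 30.5% of 33469 promoter windows of 250 bases hold at least 1. Kdr's window holds 1, on the other strand, where 9053 of 33469 windows of 218 bases hold at least 1. The core letters of a hypoxia-response element (ACGTG or GCGTG, both strands) occurred 0 times in the Vegfa window and 2 times in the Kdr window, and 32.9% of windows of 218 bases and 36.7% of those of 250 bases hold them. Among the windows of 250 bases at the starts of Vegfb, Pgf, Flt1, Nrp1 and Nrp2, GC boxes numbered 4, 2, 3, 0 and 0; those of Flt1 and Nrp2 lie inside the annotated gene, and 148 bases of Vegfb's lie before its first annotated start. A match of letters is a description only, and no match says only that these letters are not in the window.

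Nrp1 was the most abundant member and Pgf the least in both groups. Ordered by mean TPM, the levels with spironolactone ran Nrp1 (59.7), Nrp2 (42.6), Vegfa (36.7), Kdr (24.4), Vegfb (22.3), Flt1 (9.79) and Pgf (5.603). With vehicle the order of mean TPM was Nrp1 (70.6), Vegfa (45.8), Nrp2 (45.5), Kdr (41.3), Vegfb (23.0), Flt1 (14.1) and Pgf (6.20). Among neighbours in this order, only Kdr and Vegfb had overlapping library ranges with spironolactone. With vehicle, the ranges of Vegfa and Nrp2, and those of Nrp2 and Kdr, overlapped. Kdr's TPM range thus overlapped that of Nrp2 with vehicle and lay below it with spironolactone. By mean TPM over all 6 libraries, Nrp1 ranked 2370 and Pgf 10985 of 14762 genes tested.

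**Figure D1:**
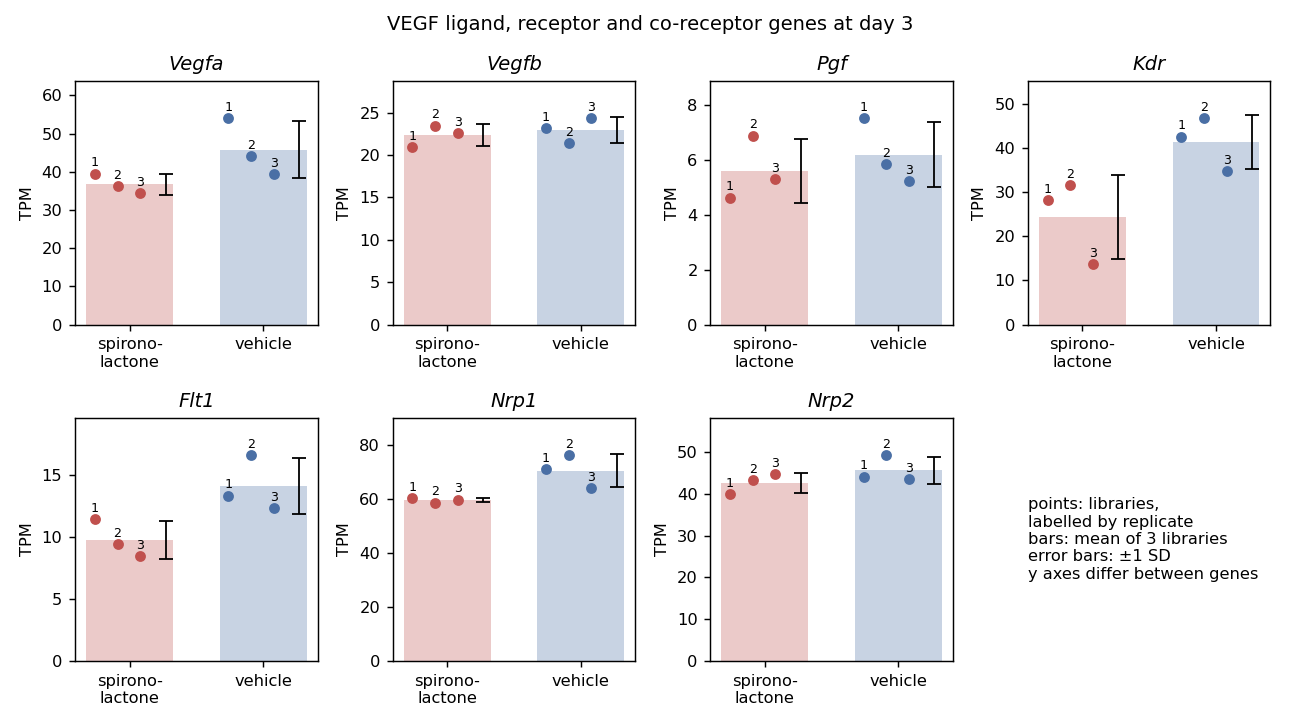
TPM of the 7 genes in each day 3 library, with spironolactone on the left and vehicle on the right of each panel; bars are means of 3 libraries and error bars 1 SD. Kdr, Flt1 and Nrp1 do not overlap between treatments, and spironolactone replicate 3 has the lowest Kdr value, at 13.6 TPM.

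Among the ligands, Vegfa had 39.6, 36.2 and 34.3 TPM in spironolactone replicates 1, 2 and 3, against 54.0, 44.1 and 39.4 TPM in vehicle replicates 1, 2 and 3. Vehicle replicate 1 was the highest, and spironolactone replicate 1 lay just above vehicle replicate 3, so the groups overlapped. The log2 fold change was -0.26 (SE 0.11, unadjusted p = 0.0576, adjusted p = 0.234 by edgeR). Without vehicle replicate 1 it was -0.13.

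Vegfb, whose protein binds VEGFR1 alone among the kinase receptors, had 20.9, 23.5 and 22.6 TPM in spironolactone replicates 1, 2 and 3 and 23.2, 21.4 and 24.3 TPM in vehicle replicates 1, 2 and 3. All 6 libraries lay within a narrow band, and the groups overlapped. The log2 fold change was 0.02 (SE 0.08, edgeR adjusted p = 0.904), and its sign turned under 3 of 15 alternatives. Pgf had 4.63, 6.89 and 5.29 TPM in spironolactone replicates 1, 2 and 3 and 7.52, 5.85 and 5.22 TPM in vehicle replicates 1, 2 and 3. Its spread within each group was wider than the difference between them, at a log2 fold change of -0.08 (SE 0.20, edgeR adjusted p = 0.829) whose sign turned under 2 of 15 alternatives. Rat Pgf is the lowest of the 3 ligand transcripts, with 78 to 163 counts per library.

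Kdr had the largest difference of the members. It had 28.2, 31.5 and 13.6 TPM in spironolactone replicates 1, 2 and 3, against 42.5, 46.7 and 34.7 TPM in vehicle replicates 1, 2 and 3. Each spironolactone library was below each vehicle library, and spironolactone replicate 3 was well below the other libraries of its group. Kdr averaged 24.4 ± 9.51 TPM with spironolactone and 41.3 ± 6.07 TPM with vehicle (SD, n = 3 each), a log2 fold change of -0.70 (SE 0.32, unadjusted p = 0.0726, adjusted p = 0.262 by edgeR).

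Spironolactone replicate 3, which set the spread of Kdr, was also the library with few retinal transcripts. The retina and lens list had a summed level of 333 to 3063 TPM with spironolactone and 3731 to 4419 TPM with vehicle. All 9 of its genes had negative log2 fold changes, against 51.6% of all genes, with a median of -0.98. At an unadjusted p under 0.05, 2 were lower (the lens crystallin genes Cryba1 at -5.09 and Crygs at -4.44), against 10.4% of all genes. By edgeR 0 were called, and none was at 0 in every library. Lens transcripts had another library that stood apart: the crystallin gene Cryaa had 16.4, 1.42 and 11.3 TPM in spironolactone replicates 1, 2 and 3, against 13.4, 36.4 and 373 TPM in vehicle replicates 1, 2 and 3. The lowest sum of the list was in spironolactone replicate 3, and the next lowest was 2408 TPM in spironolactone replicate 1. Without spironolactone replicate 3, Kdr's log2 fold change was -0.41 (SE 0.12, edgeR adjusted p = 0.139). Without that library the log2 fold change was -0.38 for Flt1, -0.19 for Nrp1 and -0.22 for Vegfa. Without the replicates 3 of both treatments, Kdr's log2 fold change was -0.51 (SE 0.08) and passed the test (edgeR adjusted p = 0.0200), in a fit that called 2.61% of genes lower. In that fit 4 of 7 members, Vegfa, Kdr, Flt1 and Nrp1, were lower at an unadjusted p under 0.05, against 13.4% of all genes. It also dropped vehicle replicate 3, where Gnat1 was at 1059 TPM and each of these 4 genes was lowest among the vehicle libraries. Without vehicle replicate 3 alone, 781 genes passed the edgeR test and Kdr did not (edgeR adjusted p = 0.295). The part of retinal tissue in the Kdr difference was not tested.

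Flt1 had 11.5, 9.42 and 8.48 TPM in spironolactone replicates 1, 2 and 3, against 13.4, 16.6 and 12.4 TPM in vehicle replicates 1, 2 and 3. No spironolactone library reached the vehicle range, the nearest being spironolactone replicate 1 and vehicle replicate 3. The mean was 9.79 ± 1.53 TPM with spironolactone and 14.1 ± 2.23 TPM with vehicle (SD, n = 3 each), and the log2 fold change was -0.47 (SE 0.15, unadjusted p = 0.0157, adjusted p = 0.135 by edgeR). DESeq2 gave an adjusted p of 0.0316 for Flt1. With single libraries left out the log2 fold change ran from -0.60 to -0.33. The tables list 1 transcript for Flt1, so reads of a soluble form and of the membrane form are not separated.

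Nrp1 showed the smallest spread of the receptors with spironolactone, at 60.5, 58.8 and 59.9 TPM in replicates 1, 2 and 3, against 71.2, 76.5 and 64.2 TPM in vehicle replicates 1, 2 and 3. The groups did not overlap, with vehicle replicate 3 nearest to the spironolactone libraries. Its log2 fold change was -0.18 (SE 0.07, unadjusted p = 0.0295, adjusted p = 0.178 by edgeR), a smaller difference than that of either kinase receptor. Nrp2, the neuropilin better known from lymphatic vessels and veins, had 39.9, 43.2 and 44.6 TPM in spironolactone replicates 1, 2 and 3 and 44.0, 49.2 and 43.4 TPM in vehicle replicates 1, 2 and 3. Here the groups overlapped, and the log2 fold change was -0.04 (SE 0.07, edgeR adjusted p = 0.760), with a sign that turned under 2 of 15 alternatives.

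Ratios within a library show whether members kept their proportions. The TPM ratio of Flt1 to Kdr was 0.407, 0.299 and 0.622 in spironolactone replicates 1, 2 and 3, against 0.314, 0.356 and 0.356 in vehicle replicates 1, 2 and 3. Spironolactone libraries lay on both sides of the vehicle libraries, and the exact two-sided permutation test gave p = 0.5, where 3 against 3 libraries cannot go below 0.1. Without spironolactone replicate 3 the log2 difference in this ratio, 0.31 with every library, was 0.03. The ratio of Vegfa to Vegfb was 1.65 ± 0.206 with spironolactone and 2.005 ± 0.361 with vehicle (SD, n = 3 each; exact permutation p = 0.2). Nrp2 to Nrp1 stood at 0.713 ± 0.046 with spironolactone and 0.646 ± 0.028 with vehicle (SD, n = 3 each; exact permutation p = 0.2). Pgf to Vegfa was at 0.154 ± 0.0366 with spironolactone and 0.135 ± 0.0038 with vehicle (SD, n = 3 each; exact permutation p = 0.6). Adjusted over these 4 ratios, the p-values ran from 0.4 to 0.6.

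The receptor values were set beside those of 18 blood endothelial markers, of which 17 had negative log2 fold changes with a median of -0.43. At an unadjusted p under 0.05, 8 of the 18 markers were lower and 0 higher, against 10.4% of all genes lower and 12.2% higher. Of all genes tested, 51.6% had negative log2 fold changes, and by edgeR 0 of the markers were called. Their summed level was 396 to 497 TPM with spironolactone and 480 to 724 TPM with vehicle, with no marker at 0 in every library; their part in the receptor differences was not tested. Ordered with these markers from the most negative log2 fold change, Kdr took place 4 and Flt1 place 10 of 20. Markers on either side of Kdr were Eng, an endothelial co-receptor of TGF-beta, at -0.70, and Ptprb, a phosphatase acting on Tie2 and VEGFR2, at -0.63. The transcription factor gene Erg had 12.8, 12.0 and 12.6 TPM in spironolactone replicates 1, 2 and 3, against 19.9, 19.5 and 16.1 TPM in vehicle replicates 1, 2 and 3, with no overlap (log2 fold change -0.50). The log2 fold change was -0.50 for Plvap, a gene of fenestrated endothelium, -0.42 for the cadherin gene Cdh5, -0.41 for Emcn and -0.25 for the angiopoietin receptor gene Tek.

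**Figure D2:**
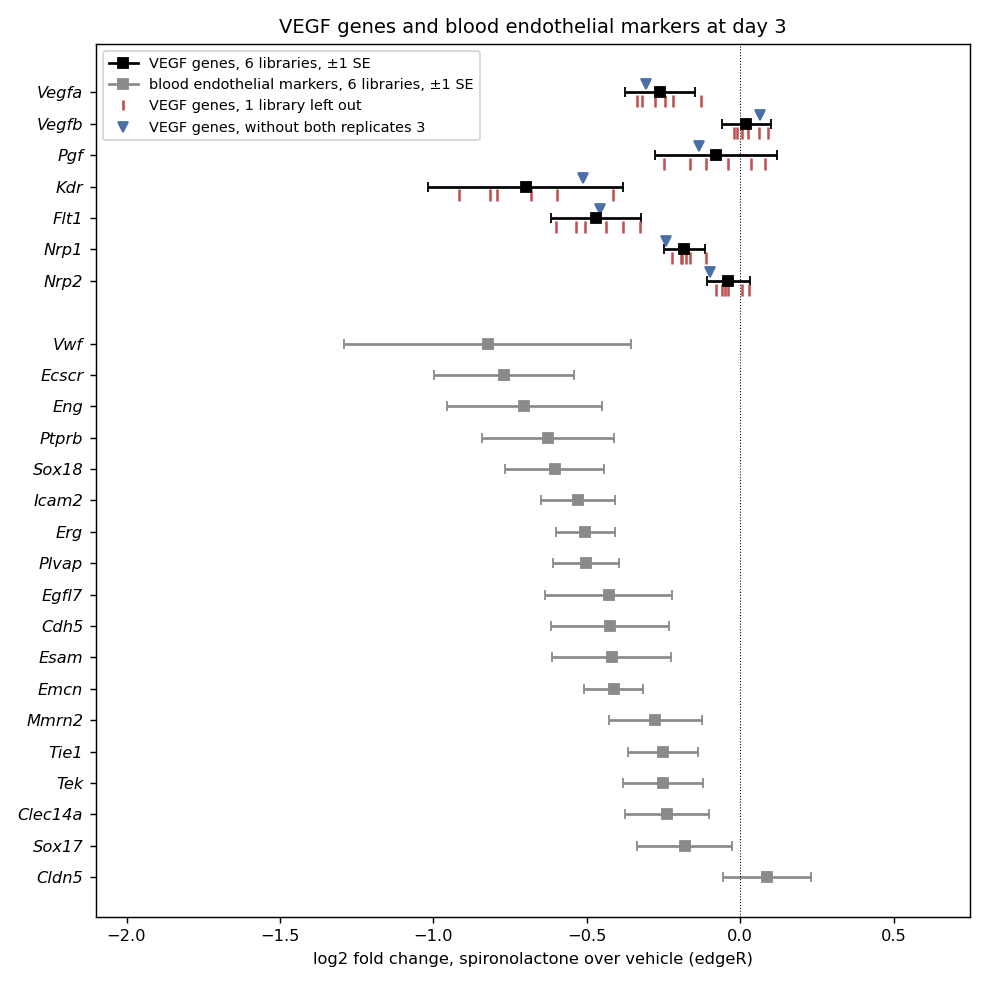
Log2 fold changes of spironolactone over vehicle with 1 SE (squares) for the 7 VEGF genes and 18 blood endothelial markers; red ticks leave out 1 library and blue triangles leave out the replicates 3 of both treatments. Kdr has the widest range of the 7 under these changes, from -0.92 to -0.41. With all 6 libraries, all 7 lie within the markers' range of -0.82 to 0.09, with Kdr at -0.70 and Flt1 at -0.47.

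Relative to the mean log2 CPM (counts scaled to a common library total with TMM factors) of those markers, Kdr was at 1.57, 2.09 and 0.83 in spironolactone replicates 1, 2 and 3, against 1.86, 1.77 and 1.92 in vehicle replicates 1, 2 and 3. Spironolactone replicate 2 lay above all vehicle libraries and the other pair below them, so the groups overlapped. The difference between groups was -0.35, and -0.02 without spironolactone replicate 3. Flt1 relative to the markers was 0.48 ± 0.10 with spironolactone and 0.53 ± 0.12 with vehicle (SD, n = 3 each), a difference of -0.05. Nrp1 and Nrp2 had positive differences relative to the markers, of 0.24 for Nrp1 and 0.39 for Nrp2, and their groups overlapped too. With the median of the markers in place of their mean, the difference was -0.56 for Kdr, -0.25 for Flt1, 0.04 for Nrp1 and 0.18 for Nrp2.

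**Figure D3:**
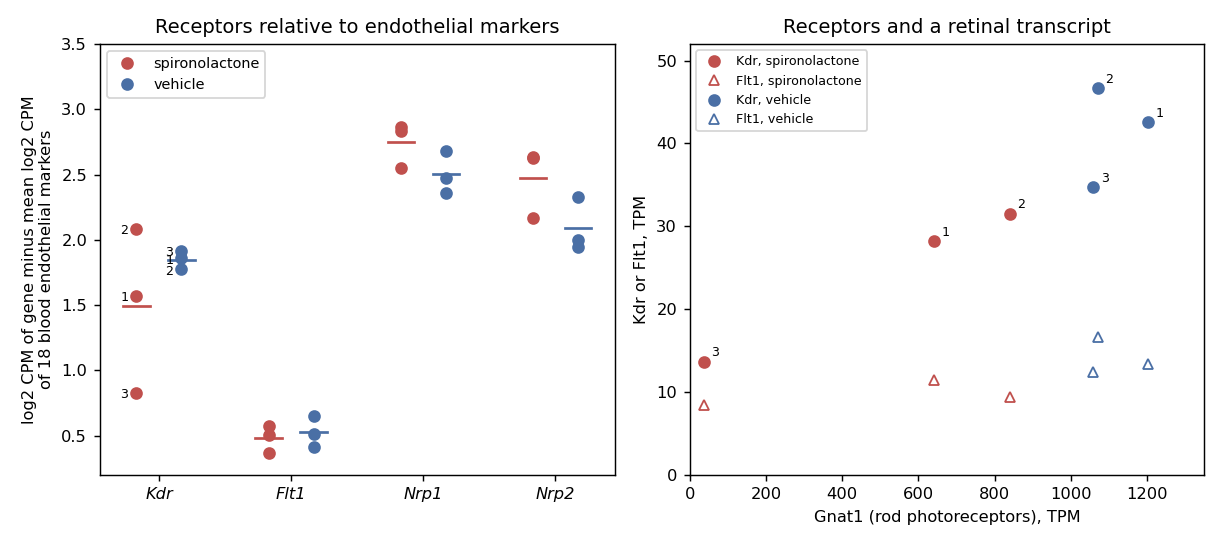
Left, log2 CPM of each receptor gene minus the mean log2 CPM of 18 blood endothelial markers, by library, with lines at group means; right, TPM of Kdr (circles) and Flt1 (triangles) against TPM of the rod gene Gnat1, with replicate numbers at Kdr. Spironolactone replicate 3 has the lowest Kdr in both panels, with Gnat1 at 37.5 TPM against 640 to 1203 TPM in the other 5 libraries.

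The rest of the VEGF family, which acts mainly on lymphatic vessels, had 0 of 3 members at an unadjusted p under 0.05. Over all genes, 10.4% were lower and 12.2% higher at that threshold. The lymphatic ligand gene Vegfc averaged 9.23 ± 1.31 TPM with spironolactone and 10.5 ± 0.421 TPM with vehicle, and Vegfd 1.90 ± 0.342 TPM with spironolactone and 2.59 ± 0.388 TPM with vehicle (SD, n = 3 each). Their receptor gene Flt4 was at 3.40 ± 0.754 TPM with spironolactone and 4.70 ± 1.02 TPM with vehicle (SD, n = 3 each). The groups overlapped for all 3, at log2 fold changes of -0.12, -0.39 and -0.41.

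Upstream, of 10 genes of the hypoxia system that controls Vegfa, 1 was higher and 1 lower at an unadjusted p under 0.05. Of all genes 12.2% were higher and 10.4% lower, and the list's median log2 fold change was 0.08. Egln3, a prolyl hydroxylase that marks HIF for degradation and is itself induced by HIF, had 84.0, 89.7 and 91.2 TPM in spironolactone replicates 1, 2 and 3, against 63.0, 57.1 and 65.05 TPM in vehicle replicates 1, 2 and 3. It was higher in each spironolactone library (log2 fold change 0.58, SE 0.07, edgeR adjusted p = 0.0649), where Vegfa's was negative. Hif1a, the HIF-1 alpha subunit, had a log2 fold change of -0.26 (edgeR adjusted p = 0.176) with overlapping groups, and Epas1, which encodes HIF-2 alpha, -0.15.

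Of 20 genes known to respond to VEGF in endothelium, 10 were lower and 0 higher at an unadjusted p under 0.05. Over all genes, 10.4% were lower and 12.2% higher. The list's median log2 fold change was -0.38, against -0.43 for the blood endothelial markers, and 0 were called by edgeR. The part of VEGF signalling or of cell content in these differences was not tested. The smallest p-values were those of Egr2, an early growth response factor (log2 fold change -0.72, edgeR adjusted p = 0.0747), and of Rcan1, a feedback inhibitor of calcineurin (-0.26, edgeR adjusted p = 0.0774). Rcan1 had 25.4, 26.5 and 23.8 TPM in spironolactone replicates 1, 2 and 3, against 32.2, 32.1 and 30.3 TPM in vehicle replicates 1, 2 and 3, and did not overlap. Apln, a peptide ligand of sprouting endothelium, had a log2 fold change of -0.75, the tip-cell gene Esm1 -0.44 and the Tie2 ligand gene Angpt2 -0.37, all without overlap of the groups. For the Notch ligand gene Dll4 (-0.28) and the nuclear receptor gene Nr4a1 (-1.01) the groups overlapped. The list of 31 tested signal transducers had 9 higher and 7 lower at an unadjusted p under 0.05, against 12.2% and 10.4% of all genes. Its median was 0.05, and 0 of the transducers were called by edgeR. Those with the smallest p were Gipc1, which encodes an adaptor of neuropilin trafficking, at a log2 fold change of 0.37, and the phosphatase gene Ptpn1 at 0.34, both with an edgeR adjusted p of 0.0649. The endothelial nitric oxide synthase gene Nos3 was at 3.59 ± 0.560 TPM with spironolactone and 6.96 ± 2.22 TPM with vehicle (SD, n = 3 each), a log2 fold change of -0.90 (edgeR adjusted p = 0.117). Plcg1, the phospholipase that VEGFR2 activates, had a log2 fold change of 0.01.

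Of 12 class 3 semaphorins and plexins, the other partners of the neuropilins, 2 were lower and 0 higher at an unadjusted p under 0.05. The median was -0.08, and over all genes 10.4% were lower and 12.2% higher. The lower 2 were Plxna4 at -0.52 and Plxnd1, a semaphorin receptor of endothelium, at -0.22. Sema3a and Sema3f, the classic ligands of Nrp1 and Nrp2, had log2 fold changes of -0.02 and -0.07.

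Lists of other cell types are given because several VEGF genes are made outside endothelium. The lists' counts are of genes at an unadjusted p under 0.05, where 10.4% of all genes tested were lower and 12.2% higher. In each list 0 were called by edgeR, and the values in brackets or after a gene name are log2 fold changes. Corneal and conjunctival epithelium, a source of Vegfa, had 8 of 10 higher, a median of 0.55 and a summed level of 21861 to 27498 TPM with spironolactone and 12967 to 18865 TPM with vehicle, with the smallest p-values for Tp63 (0.67) and Epcam (0.51). Skeletal muscle had 9 of 9 lower, a median of -2.08 and 183 to 321 TPM with spironolactone and 615 to 1385 TPM with vehicle, with the smallest p-values for Tnnc2 and Mylpf (-2.18 and -2.29). Neutrophil genes had 3 of 5 lower (median -0.72, Csf3r -0.72, Mmp8 -1.60), and 59.5 to 89.1 TPM with spironolactone and 91.5 to 127 TPM with vehicle. Macrophages, which carry Flt1, had 2 of 8 lower (median -0.27, Adgre1 -0.30, Csf1r -0.24), and their sums overlapped at 662 to 919 TPM with spironolactone and 764 to 1105 TPM with vehicle. Lymphatic endothelium had 1 of 7 lower (median -0.41, Reln -0.65, Pdpn -0.54), and sums of 382 to 557 TPM with spironolactone and 434 to 776 TPM with vehicle. Pericytes and mural cells had 1 of 8 higher (median -0.01, Notch3 0.30, Myh11 0.23), at 785 to 888 TPM with spironolactone and 751 to 892 TPM with vehicle. Stromal cells had 1 of 6 higher (median -0.02, Aldh3a1 0.42, Pdgfra -0.36) and Schwann cells 0 of 6 (median 0.07, Mbp 0.24). Summed stromal markers ran from 4616 to 5046 TPM with spironolactone and from 4833 to 5194 TPM with vehicle, and Schwann cell markers from 200.3 to 235 TPM with spironolactone and from 197 to 227 TPM with vehicle. No marker of these lists was at 0 in every library. The part of these cell types in the differences of the VEGF genes was not tested.

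**Figure D4:**
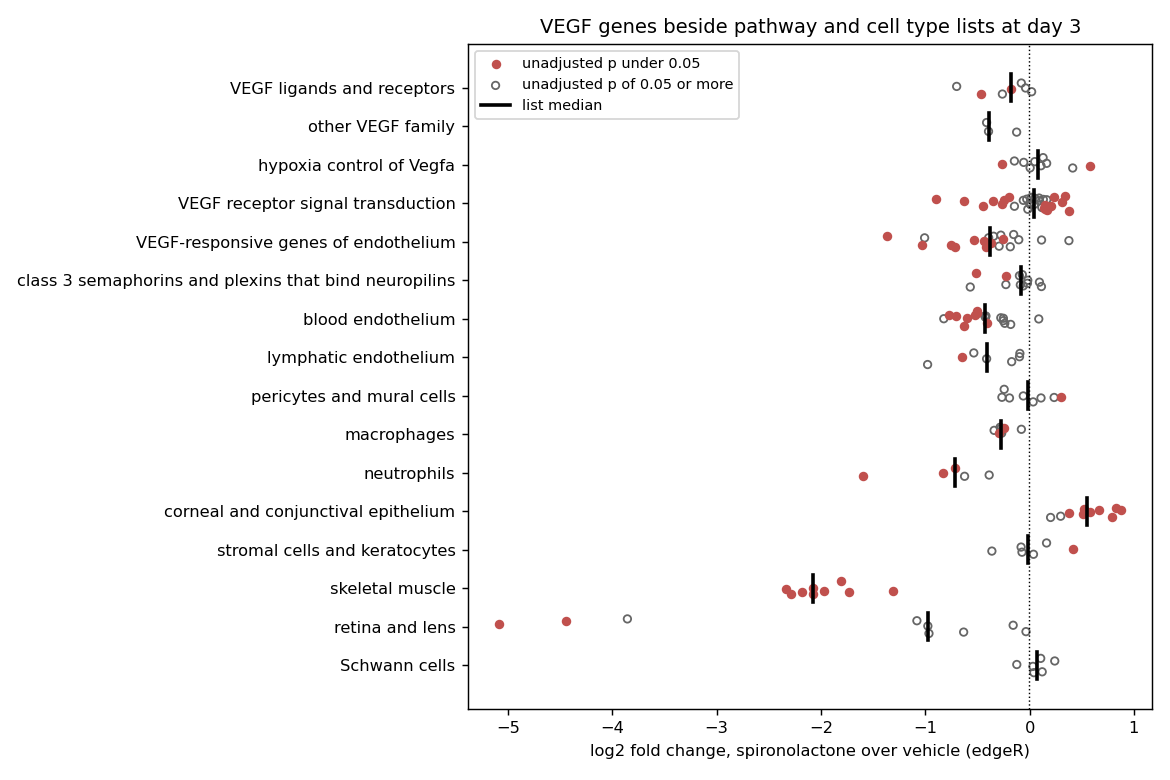
Log2 fold changes of spironolactone over vehicle for each tested gene of the VEGF set, the pathway lists and the cell type lists; red points have an unadjusted p under 0.05, black bars are list medians and the dotted line is the median of all genes tested. The VEGF median is -0.18, between the signal transducers at 0.05 and the blood endothelial markers at -0.43.

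Across the 6 libraries, Pearson r of log2 CPM was 0.83 for Kdr and Flt1, 0.89 for Flt1 and Nrp1, and 0.63 for Kdr and Nrp1. Vegfa had r of 0.68 with Kdr, 0.68 with Flt1 and 0.69 with Nrp1, each above that of Kdr and Nrp1. Vegfb had -0.65 with Flt1. These 6 points share the treatment difference and the scaling of each library. Among 11687 genes at a mean of 5 CPM or more, those most like Kdr were Uchl1, Rorb, Elovl2, Hspa12a and Sema7a (r from 0.994 to 0.997 over 6 libraries), and 515 genes had r over 0.95 with it. For Flt1 they were Rbm6, Gpm6b, Cd200, Bicd1 and Smarcd3, and for Vegfa they were Tmem18, Cxcr4, Ugdh, Lgi4 and Nr4a1, with 109 and 61 genes over 0.95. With so many genes near the top, the order among them rests on small differences.

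For members with several annotated transcripts, the abundance-weighted transcript length follows their mix, and its ranges overlapped between treatments. Vegfa has 6 transcripts in the tables, and its weighted length was 3438 to 3446 bases with spironolactone and 3440 to 3446 bases with vehicle. For Nrp1, with 2 transcripts, it was 5500 to 5506 bases with spironolactone and 5502 to 5506 bases with vehicle, and Kdr, with 3, had 5986 bases in each library. A mean length of this kind does not give the share of each splice form. In RefSeq's GRCr8 annotation no other gene overlaps Vegfa, Vegfb, Pgf or Kdr, while 3 overlap Flt1, and 1 each overlaps Nrp1 and Nrp2. These are overlaps of whole gene spans, introns included, and overlap of exons was not examined. No source used here says whether counting used strand, and without it reads of any shared exon stretch might not be told apart.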

How the data were processed

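Per the submitters' processing notes, the tools were FastQC, fastp, STAR 2.5.3a, RSEM 1.2.28, DRAGEN, Picard, DESeq2 1.26.0 and edgeR 3.28.0 with builds rn6 and Rnor_6.0; their roles are not given in the sources used here. Per the file headers, the authors' day 3 tables hold expected counts, TPM per effective length, and transcript lengths. Expected counts were rounded; 1 row naming no gene (0.12% to 0.181% of counts) was left out. Day 7 tables were not used, since no table used here pairs their gene IDs with symbols.

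In R 4.3.3, genes were kept by edgeR's filter (minimum count 10), scaled by TMM and tested with edgeR 4.0.16's quasi-likelihood test, with Benjamini-Hochberg adjustment at 0.05 over all genes. Standard errors are the log2 fold change over the square root of F. Library log2 CPM used a prior count of 2. The test was checked on simulated counts. Replicate pairs differed by more than sampling noise (chi-square per gene 7.62 to 22.8). The list genes Robo4, Col1a2, Myh4 and Figf (an older name of Vegfd) were not matched. Members and lists were chosen with earlier results of these data known. Named genes are the members, fixed pathway and endothelial genes, the 2 genes per list with the smallest p, the 5 most like Vegfa, Kdr and Flt1, in Pearson r; Eng, Krt5, Krt12, Kera, Gnat1 and Cryaa were named after their values were seen, and 1 gene that the rule names is not reported here. Alternatives were DESeq2 1.42.0 (no adjusted p for 4259 genes), limma-voom (limma 3.58.1), RLE factors, no filter, 1 CPM in 3 libraries, effective-length offsets, replicate block, libraries left out and limma on log2(TPM + 1) with the deposited TPM.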

Additional observations from a re-analysis of the deposited data

How the results depend on the processing

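Kdr, Flt1, Nrp1 and Vegfa kept a negative log2 fold change under each of 15 alternatives: -0.92 to -0.41 for Kdr, -0.60 to -0.33 for Flt1, -0.24 to -0.11 for Nrp1 and -0.34 to -0.13 for Vegfa. With DESeq2, 1330 genes and 1 member passed (Flt1, -0.465); without the replicates 3 of both treatments, 1040 genes and 1 member passed (Kdr, -0.51); without a filter 148 genes and 0 members passed. Leaving out single libraries gave 0 to 781 genes (781 without vehicle replicate 3, 40 without vehicle replicate 1, 2 without spironolactone replicate 3) and 0 members. The sign was not stable for Vegfb (-0.022 to 0.090 with 1 library left out, -0.038 with limma on log2(TPM + 1)), Pgf (-0.25 to 0.080), Nrp2 (-0.079 to 0.029) and the log2 ratio of Pgf to Vegfa (-0.0050 to 0.35). With limma on log2(TPM + 1) the median log2 fold change over all genes was -0.060, against -0.0073 in the main fit. The cause of the sign changes was not tested. Relative to the median of the endothelial markers, the difference was -0.56 for Kdr, -0.25 for Flt1, 0.042 for Nrp1 and 0.18 for Nrp2, against -0.35, -0.05, 0.24 and 0.39 with their mean, and leaving out single libraries gave -0.10 to 0.02 for Flt1, 0.17 to 0.34 for Nrp1, 0.31 to 0.54 for Nrp2 and -0.65 to -0.02 for Kdr. Deviations of replicates with the same number had r of 0.09, -0.08 and 0.05. With 3 libraries per group, these values cannot decide whether the numbers pair the samples. With replicate number as a block 0 genes and 0 members were called. In that fit Kdr was at -0.77 (SE 0.19, edgeR adjusted p = 0.143) and Vegfa at -0.25 (SE 0.065, edgeR adjusted p = 0.141). The block made the SE smaller for Vegfa, Kdr, Flt1 and Nrp2 and larger for Vegfb, Pgf and Nrp1. Pgf had the fewest counts of the members, at 78 to 163 per library.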
